A study of Mus musculus with 8 samples.

Results

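The proteasome genes of the mouse were described in myeloid cells sorted from brain tumors. They were taken as the protein-coding rows of the count table whose name starts with Psma, Psmb, Psmc, Psmd or Psme and a digit, which gave 45 of 55450 genes. Of these, 17 encode the regular 20S core ring subunits and their immunoproteasome counterparts, 2 encode 20S subunits known from testis (Psma8) and thymus (Psmb11), 20 encode parts or assembly chaperones of the 19S regulatory particle, and 5 are activator genes. The remaining gene, Psmc3ip, meets the naming rule but encodes a partner protein of meiotic recombination and is no proteasome subunit. After a filter on low counts 43 were tested, all but Psma8 and Psmb11, among 16467 genes in all.

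Cells came from GL261 tumors, a mouse glioma line, established orthotopically in the brain of mice labelled WT, and the labels give neither the age of the mice nor whether the libraries come from separate animals. Microglia, the resident macrophages of the brain (3 libraries), were sorted as F4/80+ CD11b+ CD45lo cells low or negative for CD49d. Bone marrow-derived macrophages (BMDM, 5 libraries), which enter the tumor from the blood, were sorted as F4/80+ CD11b+ CD45+ CD49d high cells, and both gates were LY6G- and low or negative for LY6C. The populations were compared to ask how macrophages suppress immunity in these tumors. All groups bear the tumor, so no library shows either cell type in a healthy brain.

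The 20S proteasome is a barrel of stacked rings in which the outer alpha rings gate the entry of proteins and the inner beta rings cut them. Its 3 constitutive catalytic subunits are encoded by Psmb5 (chymotrypsin-like activity), Psmb6 (caspase-like) and Psmb7 (trypsin-like). Interferon-gamma and other inflammatory signals can lead to their replacement, in newly built particles, by Psmb8, Psmb9 and Psmb10, which form the immunoproteasome and favour peptides fit for presentation on class I histocompatibility molecules. The 19S particle caps the barrel: its ATPases (Psmc genes) unfold the substrate, and its non-ATPases (Psmd genes) bind and remove ubiquitin. The PA28 activator of Psme1 and Psme2 is a different cap that opens the gate without ubiquitin or ATP.

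BMDM 4 and BMDM 5 stood apart from the other BMDM libraries. Library totals ran from 5890406 to 16659154 counts. Gm42418, which lies over ribosomal RNA sequence, made up between 14.8% and 19.8% of BMDM 1 to 3 but 41.2% of BMDM 4 and 48.9% of BMDM 5, and between 34.0% and 47.0% of the microglia libraries. At an equal depth of 4151079 counts, with that gene and mitochondrial rRNA set aside, BMDM 4 showed 12945 genes and BMDM 5 14098, the other BMDM 19450 to 21177, and microglia 17052 to 21642. Fold changes are therefore mostly given with all 8 libraries and with BMDM 1 to 3 only, where the share of Gm42418 differs between the groups without overlap and cannot be told apart from cell type. Of 8 microglia markers edgeR called 6 lower in BMDM, and of 8 markers of monocyte-derived macrophages 7 higher. Among all genes 0.814% were called lower and 1.11% higher. The 7 include Itga4, the gene of CD49d, on which the cells were sorted, so its direction follows from the gates. They also include Ly6c2, a gene of LY6C, for which both gates were low or negative. Ly6c2 was at 9.10, 2.61 and 1.45 CPM in microglia and 242, 84.3, 391, 384 and 61.1 CPM in BMDM 1 to 5. No marker of the microglia or the monocyte-derived list was at 0 in all libraries of either group.

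All 3 immunoproteasome genes had more mRNA in BMDM 1 to 4 than in any microglia library. BMDM 5 lay in the microglial range for Psmb8 and Psmb9. Psma5, Psmb3, Psmb4, Psmb5, Psmb7, Psmd3, Psme2 and Psme2b also had BMDM 1 to 4 above all microglia. The share of all genes with this pattern was not counted. Over all libraries 13 of 14 genes of the constitutive 20S core had a log2 fold change above 0, against 10 of 17 subunit genes of the 19S particle and 53.1% of all genes tested. Over all 8 libraries edgeR (quasi-likelihood test, p adjusted over all genes by Benjamini-Hochberg) called 0 of 43 members higher and 0 lower, where 1.11% of all genes were called higher and 0.814% lower, or 1.93% in all. At an unadjusted p under 0.05, 7 members were higher and 2 lower (16.3% and 4.65% of 43), where 6.49% and 7.27% of all genes were. DESeq2 called 3 members higher, Psmb8, Psmb9 and Psmb10, and 0 lower (background 5.55%, of which 3.65% higher and 1.9% lower). Limma-voom called 0 in either direction (background 2.59%, of which 0.972% higher and 1.62% lower). Without BMDM 5, edgeR called 4 members higher, the 3 immunoproteasome genes and Psmb3, and 1 lower, Psmd11 (background 7.17%, of which 3.38% higher and 3.79% lower). With BMDM 1 to 3 only, it called 10 members higher (23.3%) and 3 lower (6.98%), where 6.35% of all genes were called higher and 8.11% lower, or 14.5% in all. The 10 were Psma2, Psma5, Psmb3, Psmb4, Psmb5, Psmb6, Psmb8, Psmb9, Psmb10 and Psmd3, and the 3 were Psmd2, Psmd7 and Psmd11.

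The members' median log2 fold change, BMDM minus microglia, was 0.23 over all libraries and 0.36 with BMDM 1 to 3, against 0.08 and 0.09 for all genes tested. With DESeq2 size factors the medians over all libraries were 0.33 for the members and 0.17 for all genes, and with library totals alone 0.38 and 0.20. By role, the medians over all libraries were 1.29 for the immunoproteasome genes, 1.01 for the 4 beta subunits without activity, 0.68 for the 3 constitutive catalytic genes, 0.33 for the alpha ring, 0.44 for the activators, 0.10 for the 19S ATPases and 0.02 for the 19S non-ATPases. These are descriptions of the lists.

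**Figure D1:**
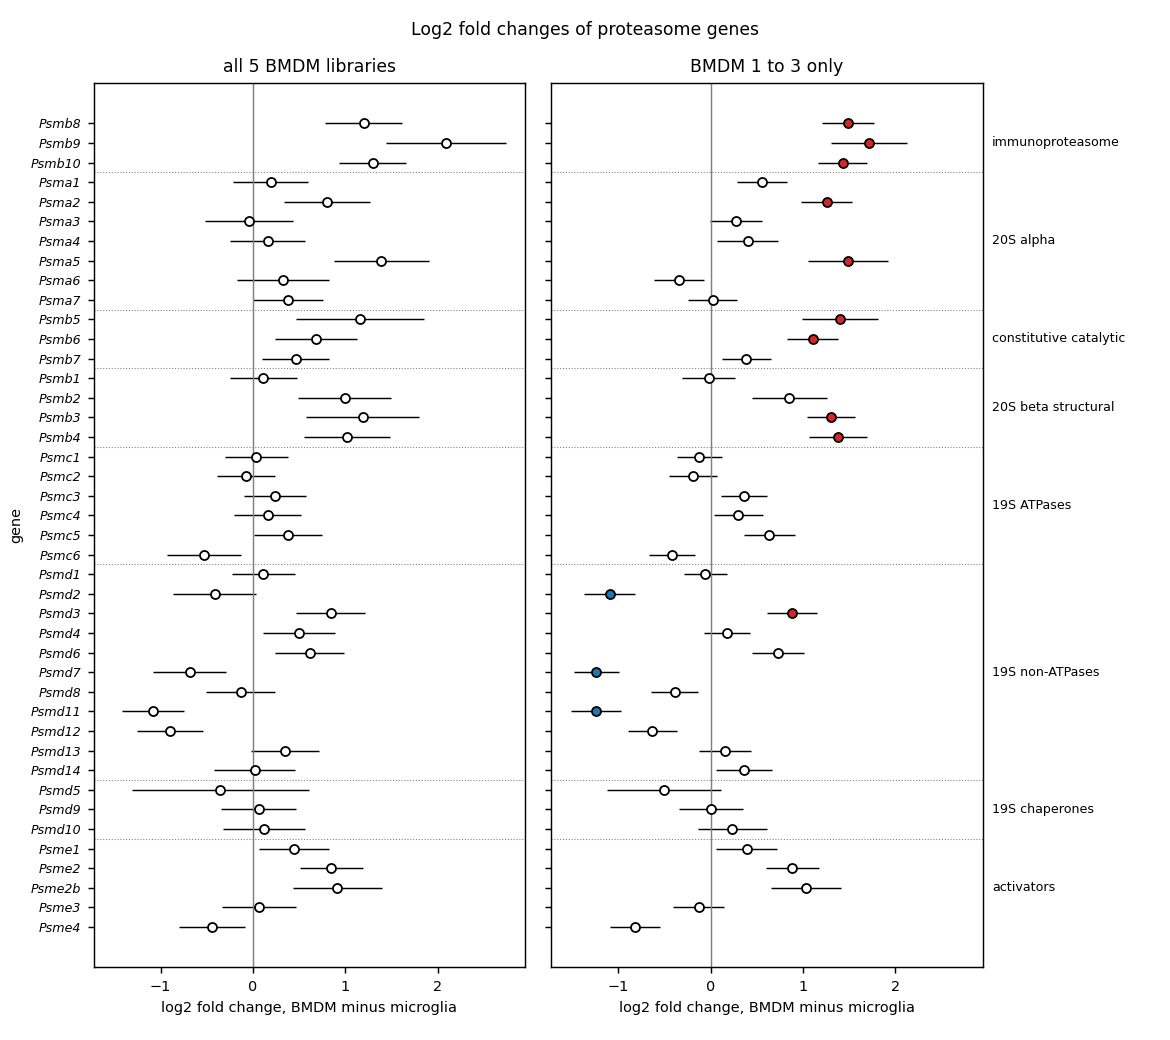
Log2 fold change of mRNA (x axis, BMDM minus microglia, edgeR) for 42 tested members on the y axis, grouped by role, Psmc3ip left out, with bars for 1 standard error. Filled points have an adjusted p under 0.05 (red higher, blue lower in BMDM). No point is filled with all 5 BMDM libraries, and 13 are filled with BMDM 1 to 3, 9 of the 10 red points in the 20S and immunoproteasome blocks.

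Of the immunoproteasome genes, Psmb8 and Psmb9 lie beside the peptide transporter gene Tap1 in the class II histocompatibility region of chromosome 17 (Psmb8 at 34197721 to 34201454 on the plus strand, Psmb9 at 34181987 to 34187764 on the minus strand, GRCm38). Psmb10 lies at 105935735 to 105938444 on chromosome 8, minus strand. The upstream sequences of Psmb8 and Psmb9 are shown with those of Psmb5 and Psmb6, because the pairs are the inducible and constitutive genes of the same catalytic positions. Each holds the 250 bases before the RefSeq transcription start (GRCm38.p6), read 5′ to 3′ on the gene's strand. For Psmb8 and Psmb9 GENCODE also annotates transcripts that start further upstream, so the RefSeq windows lie inside the GENCODE genes. Capitals mark TTCNNNGAA (gamma-activated sequence) in Psmb8, CCAAT read from the other strand in Psmb9, and TGACNNNGC (antioxidant response element core) in Psmb5 and Psmb6.
Psmb8, chr17:34197945-34198194, plus strand: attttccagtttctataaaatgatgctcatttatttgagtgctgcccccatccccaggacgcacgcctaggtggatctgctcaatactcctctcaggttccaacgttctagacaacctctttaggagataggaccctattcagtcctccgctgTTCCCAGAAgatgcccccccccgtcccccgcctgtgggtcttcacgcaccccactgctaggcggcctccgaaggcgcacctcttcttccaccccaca
Psmb9, chr17:34187331-34187580, minus strand: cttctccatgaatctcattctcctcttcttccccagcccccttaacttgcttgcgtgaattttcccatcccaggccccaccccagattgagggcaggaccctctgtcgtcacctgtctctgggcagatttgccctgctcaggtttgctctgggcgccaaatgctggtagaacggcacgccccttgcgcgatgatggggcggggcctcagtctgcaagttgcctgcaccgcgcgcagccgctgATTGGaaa
Psmb5, chr14:54617996-54618245, minus strand: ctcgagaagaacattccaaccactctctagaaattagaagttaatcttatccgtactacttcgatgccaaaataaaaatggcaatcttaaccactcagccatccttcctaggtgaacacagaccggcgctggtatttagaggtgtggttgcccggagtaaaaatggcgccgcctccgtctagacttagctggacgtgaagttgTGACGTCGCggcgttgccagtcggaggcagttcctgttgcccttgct
Psmb6, chr11:70525107-70525356, plus strand: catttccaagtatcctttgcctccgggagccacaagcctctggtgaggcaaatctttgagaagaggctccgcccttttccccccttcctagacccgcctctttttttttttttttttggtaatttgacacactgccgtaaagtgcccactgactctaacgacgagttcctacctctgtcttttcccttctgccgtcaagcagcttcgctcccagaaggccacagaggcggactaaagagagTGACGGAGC

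The motifs were searched on both strands in RefSeq windows from 250 bases before to 50 after the start, which 38 of the 45 genes have. TTCNNNGAA, the letters of the gamma-activated sequence, was in 2 of these genes (5.26%, Psmb8 and Psmd2) and in 8.30% of 32851 windows of all genes. GAAA, any 2 bases and GAAA again, the letters of the interferon-stimulated response element, were in 4 (10.5%, Psmb3, Psmd4, Psmd9 and Psme1) against 3.44%. TGACNNNGC, which NRF1 and NRF2 bind within a longer site, was in 6 (15.8%, Psmb5, Psmb6, Psmc6, Psmd9, Psmd12 and Psme4) against 12.4%, and CCAAT in 15 (39.5%) against 37.4%. The windows of Psmb9 and Tap1 share 275 bases on opposite strands (34187306 to 34187580). The window of Psmb10 held none of these motifs, which says only that these letters are not in it, and Psmb7 is not shown. A match is a description of the letters and not a bound site.

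Psmb8, whose product takes the place of Psmb5, stood at 150.2, 129 and 97.3 CPM (counts scaled to library size by TMM factors) in microglia 1 to 3 and at 319, 335, 395, 254 and 136 CPM in BMDM 1 to 5. BMDM 1 to 4 lay above all microglia, and BMDM 5 lay within their range. The means were 288 ± 98.7 CPM (SD, n = 5) and 126 ± 26.6 (n = 3), a log2 fold change of 1.20 (SE 0.41, edgeR adjusted p = 0.182). With BMDM 1 to 3 it was 1.49 (SE 0.28, edgeR adjusted p = 0.00654).

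Psmb9, the counterpart of Psmb6, was at 149, 88.9 and 79.4 CPM in microglia and at 210, 261, 569, 1088 and 125 CPM in BMDM 1 to 5. It was the member with the highest fold change and a wide spread within BMDM, where BMDM 4 held 8.72 times the level of BMDM 5, which again fell among the microglia. The log2 fold change was 2.09 (SE 0.65, edgeR adjusted p = 0.13), between 1.45 and 2.41 with any 1 library left out, and 1.71 (SE 0.41, edgeR adjusted p = 0.019) with BMDM 1 to 3. BMDM 3 and BMDM 4, the highest for Psmb9, were also highest for Irf1, an interferon-induced transcription factor, at 474 and 817 CPM against 170 to 318 in the other BMDM and 170 to 220 in microglia.

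Psmb10, the counterpart of Psmb7, was the immunoproteasome gene that separated the groups in every library. It stood at 60.8, 58.0 and 48.4 CPM in microglia and at 131, 128, 189, 151 and 85.0 CPM in BMDM 1 to 5. Its log2 fold change was 1.29 (SE 0.36, edgeR adjusted p = 0.0878), and 1.43 (SE 0.27, edgeR adjusted p = 0.00624) with BMDM 1 to 3. For 4 members no BMDM library fell in the microglial range: Psmb10 and Psme2 lay above in BMDM (4.65% of 43, where 4.32% of all genes did) and Psmd11 and Psmd12 below (4.65%, where 8.66% did).

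**Figure D2:**
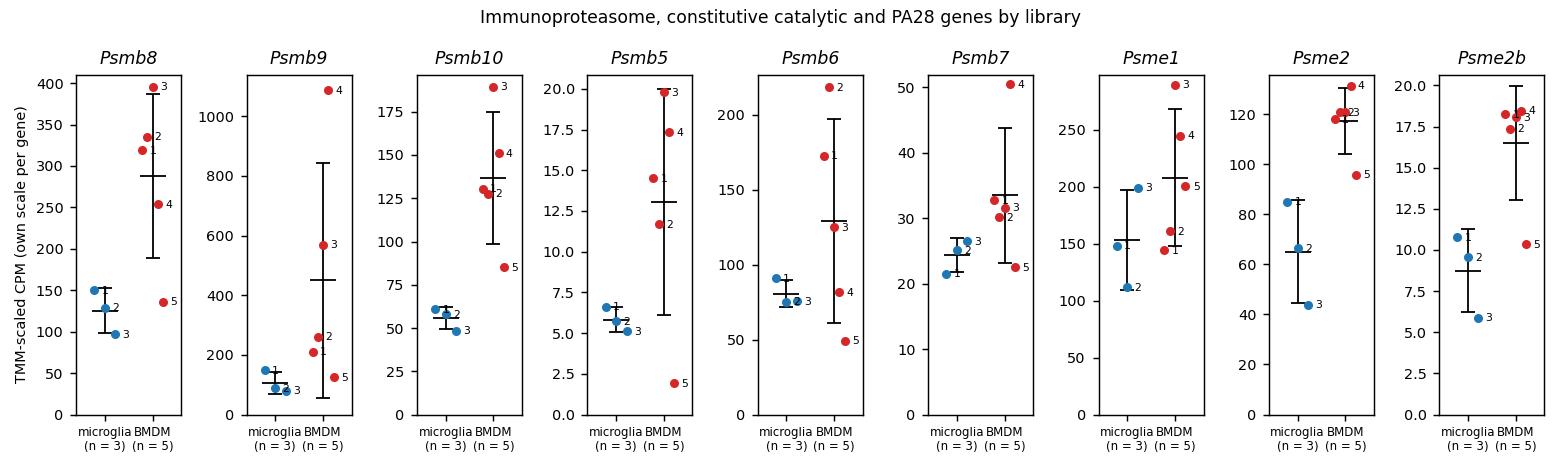
TMM-scaled CPM (y axis, its own scale for each gene) in 3 microglia (blue) and 5 BMDM libraries (red) for the immunoproteasome, constitutive catalytic and PA28 genes, with replicate numbers beside the points and bars for mean ± SD. BMDM 5 is the lowest BMDM library in 8 of the 9 panels, and the groups are apart only for Psmb10 and Psme2.

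Markers of other immune cells were read beside these genes. Summed CPM of 7 T cell markers was 3.56 to 15.5 in microglia and 24.6 to 92.8 in BMDM, without overlap, and edgeR called 0 of them. That of 5 neutrophil markers was 2.00 to 12.1 and 47.2 to 107, also without overlap, and 1 was called higher, S100a8. Ly6g, the gene of the marker that both gates excluded, was at 0 in all microglia and in BMDM 1, 2 and 4 and at 0.114 and 0.138 CPM in BMDM 3 and BMDM 5. The groups overlapped for the other immune cell lists. Sums of 5 NK cell markers were 0.556 to 9.56 in microglia and 4.98 to 148 in BMDM, with 0 called. Those of 6 dendritic cell markers were 1.74 to 4.53 and 2.90 to 69.5, with 1 called higher, Ccr7, and those of 4 B cell markers 0.704 to 8.46 and 2.71 to 8.24. Cd79a of the B cell list and Cd209a of the dendritic cell list were at 0 in all microglia and in 3 of 5 BMDM libraries each. Among lists of other brain cells, sums of 4 astrocyte markers were 86.8 to 137 in microglia and 9.23 to 19.3 in BMDM, without overlap. Of these, 1 was called lower, Slc1a3, which made up most of the microglial sums at 134, 84.6 and 124 CPM. Gfap was at 0.894, 0.704 and 0.556 CPM in microglia and at 0.666, 0.123, 3.66, 9.23 and 0 CPM in BMDM 1 to 5. Aldh1l1 peaked at 3.11 CPM in microglia 3 and Aqp4 at 0.686 CPM in BMDM 3. The astrocyte sum therefore describes mainly 1 gene. Sums of 4 endothelial markers were 20.8 to 27.6 and 31.8 to 46.5, also without overlap, with 0 called. The groups overlapped for oligodendrocyte and neuron markers. The part of all these cells in the result was not tested. In sorted bulk RNA, a change in the number of cells that carry a transcript and a change in the transcript per cell cannot be told apart.

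Of the 3 constitutive catalytic genes, Psmb5 and Psmb6 were called higher with BMDM 1 to 3, where 6.35% of all genes were. Psmb5 (chromosome 14, 54614119 to 54618022, minus strand) was the least counted of the 3, at 6.62, 5.73 and 5.12 CPM in microglia and 14.5, 11.7, 19.8, 17.3 and 1.93 CPM in BMDM 1 to 5. BMDM 1 to 4 lay above all microglia and BMDM 5 below them, a 10.2-fold range within BMDM. The log2 fold change was 1.16 (SE 0.69, edgeR adjusted p = 0.529) over all libraries and 1.40 (SE 0.42, edgeR adjusted p = 0.0448) with BMDM 1 to 3. Reads of its processed pseudogene Psmb5-ps came to 374 counts, 51.3% of the 729 counts of Psmb5, so its level depends on how such reads were shared out.

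Psmb6 (chromosome 11, 70525367 to 70527858, plus strand) was at 91.1, 75.2 and 75.5 CPM in microglia and 173, 218, 125, 81.7 and 49.2 CPM in BMDM. BMDM 1 to 3 were above all microglia, BMDM 4 among them and BMDM 5 below. Its log2 fold change was 0.68 (SE 0.45, edgeR adjusted p = 0.588), and 1.10 (SE 0.28, edgeR adjusted p = 0.0233) with BMDM 1 to 3.

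Psmb7 (chromosome 2, 38588036 to 38644087, minus strand) was at 21.5, 25.0 and 26.5 CPM in microglia and 32.8, 30.2, 31.6, 50.5 and 22.5 CPM in BMDM, with only BMDM 5 in the microglial range. It was not called in either fit, with log2 fold changes of 0.46 (SE 0.37, edgeR adjusted p = 0.689) and 0.39 (SE 0.27, edgeR adjusted p = 0.359). Its 3′ end shares 405 exon bases with Nek6 on the opposite strand, which held 2038 counts against 2143 for Psmb7, and without a known strand setting such reads cannot be told apart.

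Within a library, the ratio of an immunoproteasome gene to its constitutive counterpart does not depend on library scaling. Psmb10 over Psmb7 was 2.82, 2.31 and 1.83 in microglia and 3.98, 4.22, 5.99, 2.99 and 3.76 in BMDM 1 to 5, with every BMDM library above every microglia library. The mean log2 ratios were 1.19 ± 0.32 (SD, n = 3) and 2.03 ± 0.36 (n = 5), a difference of 0.84 (exact permutation test, two-sided p = 0.0357, the smallest that 5 against 3 allows, or 0.107 adjusted over the 3 ratios). With BMDM 1 to 3 it was 1.03, where 3 against 3 cannot reach a p below 0.10. This ratio may carry reads shared by Psmb7 and Nek6, which cannot be told without a known strand setting.

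Psmb9 over Psmb6 was 1.64, 1.18 and 1.05 in microglia and 1.22, 1.19, 4.55, 13.3 and 2.53 in BMDM. BMDM 1 and BMDM 2 lay among the microglia and BMDM 3 to 5 above, and the log2 ratios had an SD of 1.46 among the 5 BMDM libraries. The difference of mean log2 ratios was 1.22 (exact permutation test, two-sided p = 0.179, adjusted 0.268). It was 0.67 without BMDM 4 and 0.57 with BMDM 1 to 3. Psmb8 over Psmb5 was 22.6, 22.3 and 18.8 in microglia and 21.9, 28.5, 19.9, 14.6 and 67.9 in BMDM, with overlap and a difference of 0.31 (exact permutation test, two-sided p = 0.75, adjusted 0.75). That difference was 0.13 with BMDM 1 to 3, -0.04 without BMDM 5, and -0.04 with the pseudogene's counts added to Psmb5. The value of BMDM 5 rests on 14 counts of Psmb5, fewer than the 32 of Psmb5-ps in that library. In BMDM 1 to 4 both Psmb8 and Psmb5 were above all microglia, and their ratio ran from 14.6 to 28.5, on both sides of the microglial values. Ratios are of 3′ counts and are not set against each other between gene pairs.

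**Figure D3:**
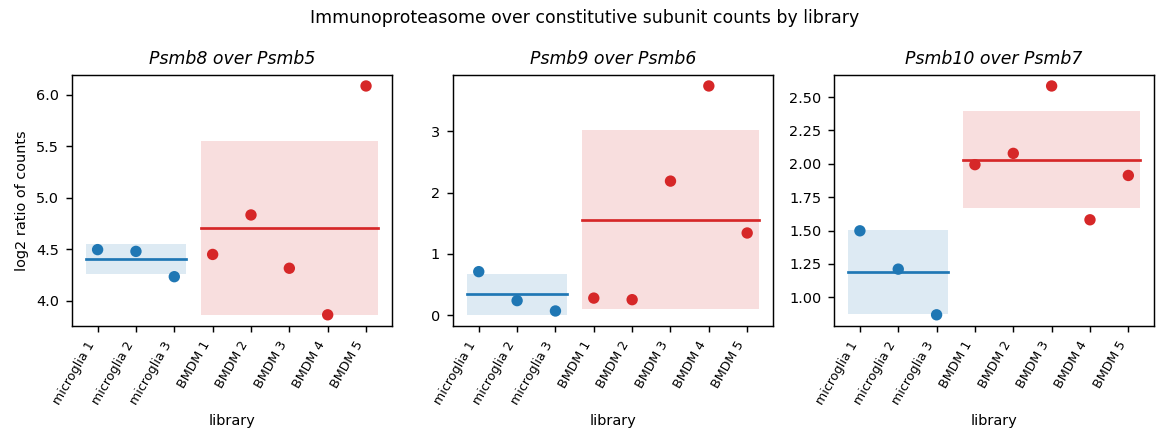
Log2 ratio of the counts of each immunoproteasome gene to its constitutive counterpart (y axis) in each library (x axis, microglia blue, BMDM red), with lines and bands for group mean ± SD. Psmb10 over Psmb7 has all BMDM points above all microglia points, BMDM 3 and BMDM 4 lead for Psmb9 over Psmb6, and BMDM 5 alone is far above the rest for Psmb8 over Psmb5. That BMDM 5 point rests on 14 counts of Psmb5.

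The 4 beta subunits without catalytic activity form the rest of the inner rings. Psmb3 was at 53.5, 58.0 and 80.5 CPM in microglia and 133, 156, 179.9, 247 and 14.4 CPM in BMDM. BMDM 1 to 4 lay above all microglia and BMDM 5 below them, a 17.2-fold range within BMDM. Its log2 fold change was 1.19 (SE 0.61, edgeR adjusted p = 0.426), 1.47 without BMDM 5 (SE 0.30, edgeR adjusted p = 0.0148) and 1.31 with BMDM 1 to 3 (SE 0.26, edgeR adjusted p = 0.00851). Psmb4 was at 159, 181 and 93.1 CPM in microglia and 314, 407, 403, 237 and 104 CPM in BMDM, with BMDM 5 alone among the microglia. It had a log2 fold change of 1.02 (SE 0.46, edgeR adjusted p = 0.344) and 1.38 (SE 0.32, edgeR adjusted p = 0.0155) with BMDM 1 to 3. Psmb2 (0.99 and 0.85) did not pass in either fit. Psmb1 had the lowest value of the 4, 0.11 over all libraries and -0.02 with BMDM 1 to 3, with 125, 130 and 81.4 CPM in microglia and 83.1, 126, 121, 91.4 and 185 in BMDM.

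In the alpha ring, 2 of 7 genes were called higher with BMDM 1 to 3 and 0 with all libraries, where 6.35% and 1.11% of all genes were. Psma5 was at 12.04, 8.55 and 3.89 CPM in microglia and 19.6, 26.6, 22.9, 28.3 and 10.1 CPM in BMDM. BMDM 5 was the only BMDM library within the microglial range. The log2 fold change was 1.39 (SE 0.52, edgeR adjusted p = 0.222) and 1.49 (SE 0.44, edgeR adjusted p = 0.0427) with BMDM 1 to 3. Psma2 was at 136, 132 and 104 CPM in microglia and 278, 355, 250.2, 93.3 and 103 CPM in BMDM, with BMDM 4 and BMDM 5 below all microglia. It was at 0.80 (SE 0.46, edgeR adjusted p = 0.514) over all libraries and 1.26 (SE 0.27, edgeR adjusted p = 0.0122) with BMDM 1 to 3. Psma3 had the lowest log2 fold change of the ring over all libraries, -0.04 (SE 0.48) and 0.28 with BMDM 1 to 3, with 55.5, 65.5 and 52.5 CPM in microglia and 87.5, 74.6, 46.3, 11.8 and 60.9 in BMDM; with DESeq2 size factors it was 0.07. Psma1, Psma4, Psma6 and Psma7 ran from 0.16 to 0.38 over all libraries and from -0.34 to 0.56 with BMDM 1 to 3.

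The 19S ATPases form the ring that unfolds substrates and threads them into the core. None of the 6 was called by edgeR in either fit, and 0 by DESeq2, where the immunoproteasome genes had 3 of 3. Psmc5 had the highest log2 fold change, 0.38 (SE 0.37, edgeR adjusted p = 0.763) and 0.64 with BMDM 1 to 3, with 34.2, 23.2 and 25.5 CPM in microglia and 41.7, 42.2, 44.4, 21.3 and 30.3 in BMDM. Psmc6 had the lowest, -0.53 (SE 0.40, edgeR adjusted p = 0.669) and -0.42 with BMDM 1 to 3, with 72.8, 57.4 and 61.0 CPM in microglia and 53.1, 47.9, 41.0, 15.3 and 64.1 in BMDM. In both, BMDM 1 to 3 lay outside the microglial range, and 1 or both of BMDM 4 and BMDM 5 lay back within it or beyond its other end.

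Of 11 non-ATPases of the 19S particle, 1 was called higher and 3 lower with BMDM 1 to 3, where 6.35% and 8.11% of all genes were. Psmd11, a lid subunit that holds the particle and the core together, was at 90.3, 88.2 and 88.0 CPM in microglia and 27.4, 35.1, 49.3, 34.4 and 63.2 CPM in BMDM. All BMDM libraries lay below all microglia, whose values had an SD of 1.29 CPM. The log2 fold change was -1.08 (SE 0.34, edgeR adjusted p = 0.135), -1.29 without BMDM 5 (SE 0.28, edgeR adjusted p = 0.0178), and -1.24 with BMDM 1 to 3 (SE 0.27, edgeR adjusted p = 0.0128). Psmd12, another lid subunit, was also below in every BMDM library, at 63.0, 49.7 and 49.9 CPM in microglia against 33.2, 41.2, 30.1, 14.96 and 25.7, with a log2 fold change of -0.90 (SE 0.36, edgeR adjusted p = 0.263), and -0.63 with BMDM 1 to 3 (edgeR adjusted p = 0.134).

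Psmd7, which pairs with the deubiquitinase Psmd14 in the lid, and Psmd2, a scaffold of the base that binds ubiquitin-like domains, were called lower with BMDM 1 to 3 and not with all libraries. Psmd7 was at 182, 182 and 198 CPM in microglia and 90.4, 70.7, 75.6, 151 and 195 CPM in BMDM, with BMDM 5 alone in the microglial range. Its log2 fold change was -0.69 (SE 0.39, edgeR adjusted p = 0.494), or -1.24 (SE 0.24, edgeR adjusted p = 0.00773) with BMDM 1 to 3. Psmd2 was at 216, 218 and 221 CPM in microglia and 76.4, 91.0, 137, 175 and 338 CPM in BMDM. BMDM 1 to 4 were below all microglia and BMDM 5 above them, so the log2 fold change was -0.42 (SE 0.45, edgeR adjusted p = 0.80) over all libraries and -1.09 (SE 0.28, edgeR adjusted p = 0.0248) with BMDM 1 to 3. Psmd3, a lid subunit, went the other way, at 36.2, 35 and 46.8 CPM in microglia and 57.5, 66.7, 90.6, 100.4 and 36.8 CPM in BMDM. Only BMDM 5 lay within the microglial range, and the log2 fold change was 0.84 (SE 0.38, edgeR adjusted p = 0.334) and 0.88 (SE 0.27, edgeR adjusted p = 0.0481) with BMDM 1 to 3.

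Among the other non-ATPases, log2 fold changes over all libraries ran from -0.13 for Psmd8 to 0.61 for Psmd6, and Psmd14, the deubiquitinase, was at 0.02 (SE 0.44). The assembly chaperones of the base were not called in either fit. Psmd10 had the highest value of the 3, 0.12 (SE 0.45) and 0.24 with BMDM 1 to 3, with 13.04, 22.6 and 24.3 CPM in microglia and 15.8, 33.1, 20.5, 10.98 and 27.9 in BMDM. Psmd5 had the lowest, -0.35 (SE 0.96) and -0.50 with BMDM 1 to 3, with 9.57, 8.75 and 6.12 CPM in microglia and 1.86, 6.40, 8.92, 0.159 and 14.5 in BMDM, the widest relative spread of any tested member without a 0.

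Core and cap can be set side by side within each library as the mean log2 CPM of 14 constitutive 20S genes minus that of 17 genes of the 19S particle. The difference was -0.57, -0.56 and -0.89 in microglia and 0.12, 0.33, 0.00, 0.06 and -1.01 in BMDM 1 to 5. BMDM 1 to 4 lay above all microglia, and BMDM 5 lay below them. Of the 14 core genes 6 were called higher with BMDM 1 to 3 and 0 lower, against 1 of 17 higher and 3 lower in the 19S particle. Among all genes, that fit called 6.35% higher and 8.11% lower. The difference between the core and 19S counts was not tested. The genes of each mean differ in level and length, so the value of any library alone does not bear reading. Differences between libraries may also carry transcript length, with which fold changes went among all genes. Median length was 899 to 1201 bases in the lists of the core and 1688 and 1983 in those of the 19S particle. The part of length in these differences was not tested.

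**Figure D4:**
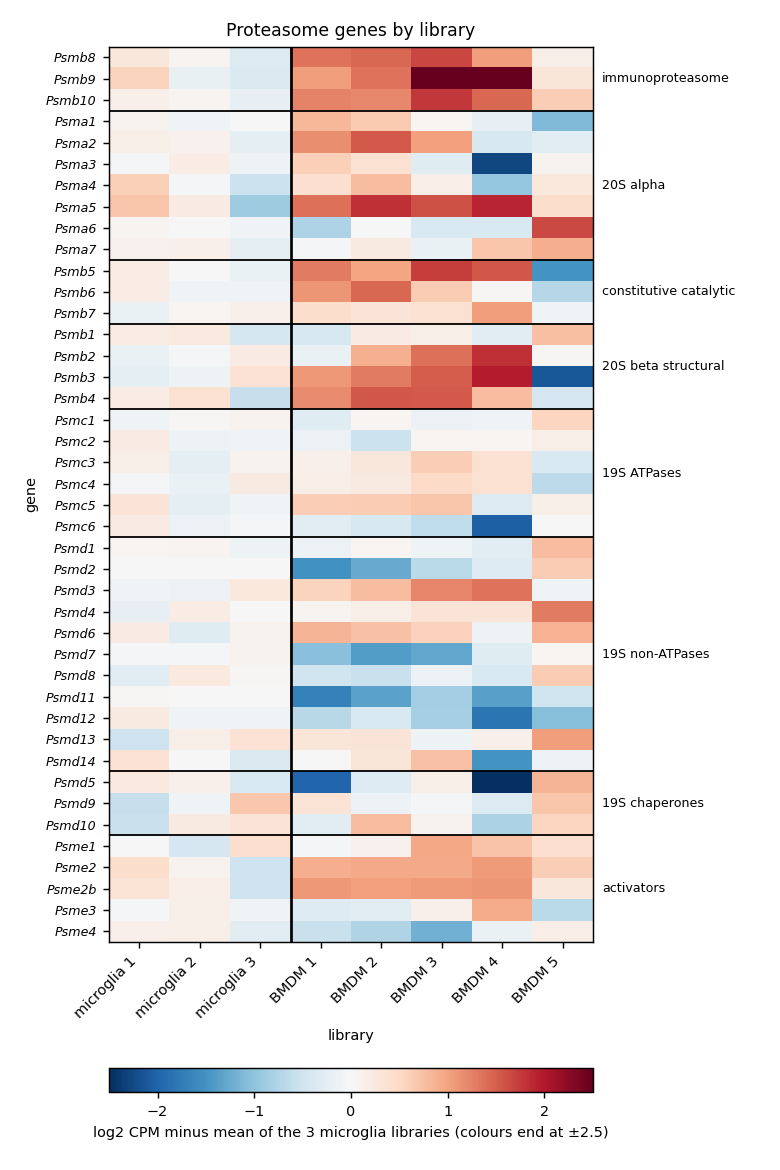
Log2 CPM of 42 members (y axis, by role, Psmc3ip left out) in each of the 8 libraries (x axis) minus the mean of the 3 microglia libraries, red higher and blue lower, with colours ending at 2.5. BMDM 1 to 4 are red in the immunoproteasome rows, and BMDM 5 has a pattern of its own in which Psmb3 and Psmb5 are blue and Psma6 and Psmd4 red.

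The activators were not called in either fit. Psme2, the PA28 beta subunit, was at 85.0, 66.5 and 43.8 CPM in microglia and 118, 121, 121, 131 and 95.8 CPM in BMDM, all of them above all microglia. Its log2 fold change was 0.85 (SE 0.34, edgeR adjusted p = 0.263) and 0.88 (SE 0.29, edgeR adjusted p = 0.0623) with BMDM 1 to 3. Psme1, the PA28 alpha subunit of the same ring, overlapped between the groups at 148, 112 and 199 CPM in microglia and 144, 161, 289.6, 245 and 201 CPM in BMDM (0.44, SE 0.38, edgeR adjusted p = 0.718, and 0.39 with BMDM 1 to 3). Psme2b had the highest value of the 5, 0.91 (SE 0.48, edgeR adjusted p = 0.442) and 1.03 with BMDM 1 to 3, but the last 300 bases of Psme2 and Psme2b are 99.0% identical and its 980 counts against 7115 cannot be told apart from reads of Psme2. Psme4, the nuclear activator PA200, had the lowest, -0.44 (SE 0.36, edgeR adjusted p = 0.694) and -0.82 with BMDM 1 to 3 (SE 0.27, edgeR adjusted p = 0.0664), with 85.8, 87.1 and 64.9 CPM in microglia and 53.5, 46.4, 34.1, 69.9 and 88.2 in BMDM. Psme3, the nuclear PA28 gamma, was at 0.07 (SE 0.40) and -0.13 with BMDM 1 to 3.

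Psma8 and Psmb11 were near the limit of counting in both groups. Psma8 had 5, 9 and 14 counts in microglia and 2, 5, 3, 33 and 4 in BMDM, so BMDM 4 held the most. Psmb11 had 0, 23 and 3 counts in microglia and 0 in every BMDM library, and its 3′ end has near-identical stretches in many other genes, among them Med16 with 2910 counts. Psmc3ip, which is no subunit, had 108 counts in all libraries together and was at 0 in 3 of them, with a log2 fold change of -0.06 (SE 1.86); its 3′ end lies on Mlx of the opposite strand, which had 1066.

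Proteasome genes outside the naming rule were read from a list of 21, of which 20 were in the table and tested. None was called over all libraries by edgeR, DESeq2 called Sem1 higher and Psmg2 lower, and with BMDM 1 to 3 edgeR called 4 higher and 4 lower. Among all genes, DESeq2 called 3.65% higher and 1.9% lower, and edgeR with BMDM 1 to 3 called 6.35% and 8.11%. Pomp, the maturation factor of the 20S core, was at 342, 335 and 164 CPM in microglia and 962, 887, 514, 194 and 349 CPM in BMDM (log2 fold change 1.5 with BMDM 1 to 3, edgeR adjusted p = 0.0233). BMDM 1 to 3 lay above all microglia, BMDM 5 just above them and BMDM 4 among them. Sem1, a small lid subunit, was at 112, 121 and 91.8 CPM in microglia and 384, 575, 358, 274 and 129.8 CPM in BMDM, all above the microglia (2.03, edgeR adjusted p = 0.00233). The core assembly chaperones Psmg3 and Psmg4 were higher too (1.10 and 2.26), and Psmg2 was lower (-1.90, edgeR adjusted p = 0.036). The deubiquitinase Usp14, the ubiquitin ligase Ube3c and Akirin2, which brings proteasomes into the nucleus, were lower (-0.89, -1.42 and -0.85).

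The regulators of proteasome genes showed no call in either fit. Of 8 listed, Nfe2l1, which encodes NRF1 and raises proteasome genes when the proteasome is impaired, was at 49.6, 49.3 and 51.2 CPM in microglia and 28.4, 26.7, 52.6, 82.3 and 87.5 in BMDM. BMDM 1 and BMDM 2 lay below all microglia and BMDM 3 to 5 above them. Of 8 genes of class I peptide supply, 0 were called over all libraries, and 1, the chaperone Canx, was lower with BMDM 1 to 3 (-0.94, edgeR adjusted p = 0.034). That fit called 8.11% of all genes lower. Tap1, the peptide transporter whose upstream window overlaps that of Psmb9, was at 130, 98.6 and 131 CPM in microglia and 113, 117, 205, 314 and 340 CPM in BMDM. BMDM 1 and BMDM 2, which exceeded all microglia for Psmb9, did not for Tap1. Psmb9 and Tap1 share 212 exon bases on opposite strands.

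Of 16 genes of the interferon-gamma response 1, Ciita, was higher over all libraries (log2 fold change 2.68, edgeR adjusted p = 0.0275), and 3 were with BMDM 1 to 3, Ciita, the chemokine Cxcl9 and the signalling inhibitor Socs1. Among all genes, 1.11% were called higher over all libraries and 6.35% with BMDM 1 to 3. Averaged over the list, log2 CPM was 6.16, 5.90, 6.59, 6.77 and 5.81 in BMDM 1 to 5 and 5.69 to 5.99 in microglia. BMDM 3 and BMDM 4 were highest, and BMDM 2 and BMDM 5 lay within the range of microglia. The median log2 fold change of its 16 genes was 0.16, against 0.08 for all genes.

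Fold changes went with transcript length, among members and among all genes. Tested protein-coding genes whose longest annotated transcript was under 1000 bases had a median log2 fold change of 0.82 over all libraries and 1.06 with BMDM 1 to 3 (647 genes), and the 6 members of that length 0.95 and 1.07. From 1000 to 2000 bases the medians were 0.20 and 0.27 for all genes and 0.28 and 0.36 for 26 members. From 2000 to 3000 bases they were -0.04 and -0.03 for all genes and 0.01 and -0.06 for 8 members, and beyond 3000 bases -0.19 and -0.28 for all genes and -0.35 and -0.50 for 3 members. The median length was 899 bases for the constitutive catalytic genes, 1021 for the other beta genes, 1201 for the alpha ring, 1688 for the ATPases and 1983 for the non-ATPases, so the order of the constitutive groups by fold change is also close to their order by length. The 3 immunoproteasome transcripts are 1311 to 1628 bases long, and their log2 fold changes of 1.20 to 2.09 lie above the median of 0.20 for that length. So do those of other members from 1000 to 2000 bases, among them Psma5 (1239 bases, 1.39) and Psmb4 (1183 bases, 1.02). Over 43 members, Pearson's r of fold change with log2 length was -0.57 over all libraries and -0.58 with BMDM 1 to 3, a description of genes that share the same libraries. The part of length in the results was not tested.

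**Figure D5:**
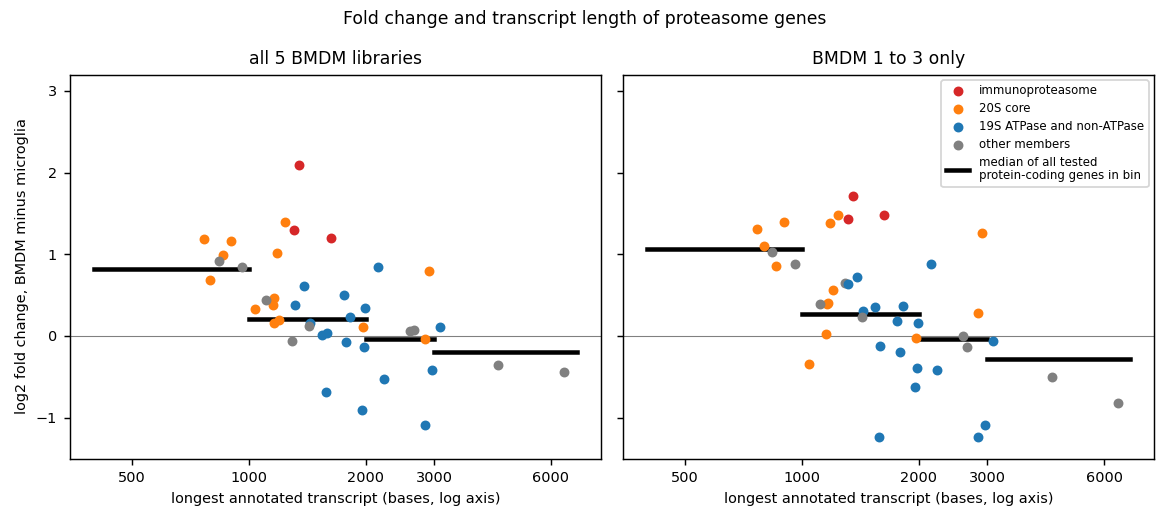
Log2 fold change (y axis, BMDM minus microglia) of 43 members against the length of the longest annotated transcript in bases (x axis, log scale), coloured by role, with black lines for the median of all tested protein-coding genes in each length bin. The black lines step down from 0.82 to -0.19 over all libraries. The 3 immunoproteasome points lie above the line of their bin in both panels, as do other members such as Psma5 and Psmb4.

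The BMDM libraries differed among themselves more widely than the microglia. Over 42 tested members, the highest BMDM library was a median of 2.74 times the lowest and over 4 times it for 11, whereas in microglia the median was 1.32 and 0 exceeded 4. In BMDM 1, 2, 3, 4 and 5, 39.5%, 53.5%, 48.8%, 41.9% and 39.5% of 43 members were above the whole microglial range, where 37.9%, 37.4%, 34.4%, 27.8% and 29.8% of all genes were. Below it were 30.2%, 20.9%, 20.9%, 37.2% and 23.3% of members, against 34.5%, 33.2%, 32.7%, 43.9% and 39.5% of all genes. With BMDM 1 to 3 only, 15 members lay above all microglia (34.9%, where 19.6% of all genes did) and 6 below (13.95%, where 19.7% did). Range comparisons of 5 and of 3 libraries are not alike, since more libraries give a wider range.

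Several members share their 3′ end with another gene or a near-identical copy, where the 3′ reads of this assay fall. Beside those named, the 3′ end of Psmc3 lies on Slc39a13 of the opposite strand, which held counts equal to 16.5% of those of Psmc3. Psma4 has a pseudogene, Gm6542, with counts equal to 13.4% of its own, Psma5 one (Gm8394) with 9.20%, and Psmb3 one (Gm5356) with 5.28%. The levels of these genes are uncertain to that extent.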

How the data were processed

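The authors deposited raw read counts per gene, whole numbers with a different sum in each library, from QuantSeq 3′ FWD libraries, which read the 3′ end of polyadenylated RNA. FastQC, cutadapt, STAR and featureCounts are named with mm10 in the submitters' processing notes. Tool versions, the strand setting and the treatment of reads that match several places are not given in the sources used here. All 55450 identifiers (100%) were found in GENCODE M21 (GRCm38), the source of positions and lengths. The test was that of edgeR 4.0.16 under R 4.3.3 (filterByExpr with minimum count 10 and total 15, TMM factors, robust quasi-likelihood test, Benjamini-Hochberg adjustment over 16467 genes, threshold 0.05) over 3 microglia and 5 BMDM libraries. DESeq2 1.42.0, limma-voom 3.58.1, other scalings and filters, a replicate block, BMDM 1 to 3 only and each library left out were alternatives. CPM values are scaled by TMM factors, and log2 CPM used a prior count of 2. Levels are 3′ counts and are not compared between genes. Ratios had 0.5 counts added and an exact permutation test over 56 arrangements. Near-identical copies were searched in the last 300 bases of each transcript (at least 75 aligned bases at 95% identity). The procedure was tested on simulated counts with known changes, each larger than that of any member. The simulation therefore does not bear on changes of the size seen here. Replicates of a group always differed by more than sampling noise (lowest chi-square per degree of freedom 20.7). Since the labels do not say that libraries are separate mice, the spread behind each p-value may be technical.

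Genes described in full were the catalytic, immunoproteasome and PA28 genes, every called member, and the highest and lowest fold change of each other list. Psmd12, the other members given by range or in passing, and the genes of related lists were named after their values were seen. The members and lists were chosen with earlier results of these data known.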

Additional observations from a re-analysis of the deposited data

Results flagged for a closer look

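In 46 sets of 5 BMDM values, 7 had a library far from the other 4 (Dixon's criterion at 95%). That criterion flags about 1 in 20 sets of independent normal values. These CPM values and ratios were not logged and come from the same 5 libraries, so the count of 7 is a description. BMDM 5 was the outlying library in 6. It held the highest level of Psma6, an alpha ring gene (171 CPM), and of 3 genes of the 19S particle, Psmd1 (121 CPM), Psmd4 (419 CPM) and Psmd8 (261 CPM). It held the lowest BMDM level of Psme2b (10.4 CPM), and its ratio of Psmb8 to Psmb5 was the highest (67.9). That ratio rests on 14 counts of Psmb5 in BMDM 5, where Psmb5-ps held 32. BMDM 4 had the highest ratio of Psmb9 to Psmb6 (13.3). BMDM 4 and BMDM 5 are also the libraries with the higher Gm42418 share and fewer detected genes. The part of these in the values was not tested.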

How the results depend on the processing

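Over all libraries 0 members were called higher and 0 lower, and the count of higher members was 1 with no filter (Psmb9), 1 with a stricter filter of 10 CPM in 3 libraries (Psmb10), 3 with DESeq2, 10 with BMDM 1 to 3 and 0 to 4 with 1 library left out. That of lower members was 3 with BMDM 1 to 3 and 0 to 1 with 1 library left out. Among all genes 317 were called, 721 with no filter, 914 with DESeq2, 2340 with BMDM 1 to 3, and 104 (without microglia 3) to 1138 (without BMDM 5) with 1 library left out. Only BMDM 5, when left out, brought a member past the threshold.

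Replicate numbers 1 to 3 occur in both groups. A fit with the replicate number as a block called 11 members higher (25.6% of 43), Psme2 added to the 10 of BMDM 1 to 3. It called 4 lower (9.30%), with Psme4 added. Among all 16467 genes tested it called 1449 higher and 1774 lower, 3223 in all. The other BMDM libraries have replicate numbers without a microglia library, so under the block they add nothing to the contrast of the groups. Its calls therefore rest on replicates 1 to 3 of each group and not on all BMDM libraries. Same-numbered libraries deviated together by correlations of 0.14, 0.09 and 0.24, and the labels do not say whether they are paired. Every library of these numbers correlated best with its own number, a hint from the data and not the design. Under that block Psma3 was at 0.22, Psmb1 at -0.02 and Psmc3ip at 1.51.

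Log2 fold changes that turned sign were all near 0. Psma3 (-0.04) was 0.0729 with DESeq2 size factors, 0.157 with library totals, 0.0835 with the stricter filter, 0.0728 with DESeq2, 0.28 with BMDM 1 to 3, 0.0328 without Gm42418 and mitochondrial rRNA, and -0.24 to 0.20 with 1 library left out. Psmc3ip (-0.06) was 0.0585 with DESeq2 size factors, 0.0912 with library totals, 0.061 with DESeq2, 0.64 with BMDM 1 to 3, 0.0263 without Gm42418 and mitochondrial rRNA, and -0.67 to 0.95 with 1 library left out. Psmb1 was -0.0187 with BMDM 1 to 3 and -0.15 to 0.23, and Psmd10 -0.13 to 0.27, with 1 library left out. The log2 ratio of Psmb8 to Psmb5 ran from -0.0377 (without BMDM 5) to 0.517 (without BMDM 4), and was -0.0369 with the counts of Psmb5-ps added, an alternative chosen after seeing the data. The cause was not tested. In all, 361 of the alternative values of named members kept direction and side of the threshold, 38 newly passed it and 25 changed sign. Ratio tests with 1 library left out cannot go below p = 0.0571 (exact permutation test, 4 against 3) or 0.0952 (5 against 2).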
